A study of Mus musculus with 2 samples.

Results

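Prmt5 and Haus4 are neighbouring protein-coding genes of mouse chromosome 14 whose bodies were almost wholly covered by H3K9me3 peaks, and they were chosen by that body coverage in the mm10 lists of the same replicates. They are 2 of the 16849 protein-coding genes with a length of 5 kb or more on the mm10 chromosomes, and they are described with 100 kb on either side, a window that holds 20 genes in mm10. The data are H3K9me3 ChIP-seq peak lists from 1 group of 2 replicates of E14TG2a.4, a male mouse embryonic stem cell line of strain 129/Ola, with an embryonic age of 3.5 days in the labels. The labels name no treatment or genetic change, so no condition was compared. Each replicate has its own biosample in the labels, but these do not say whether the cultures were grown separately, so the spread between the 2 may be technical. Read depth is unknown, because the lists hold no counts.

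H3K9me3 is the trimethylated form of lysine 9 on histone H3. Methyltransferases deposit it, heterochromatin proteins read it, and in stem cells it is best known at transposable elements and silent repeats. Prmt5 encodes a methyltransferase that puts symmetric dimethyl marks on arginines of histones and of spliceosomal Sm proteins, and mouse embryos without it die early. Haus4 encodes a subunit of augmin, the complex that brings gamma-tubulin to the side of existing spindle microtubules so that new ones branch from them. Both are widely expressed genes, and peak lists of H3K9me3 say nothing of their transcript levels here.

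Both genes run on the minus strand, so Haus4 lies upstream of Prmt5. In mm10, Prmt5 (gene ID 27374) occupies chr14:54507182-54517470, which is 10289 bp, and Haus4 (gene ID 219072) occupies chr14:54541785-54554989, which is 13205 bp. Their promoters are shown because they carried no replicated peak. Each is the RefSeq sequence of GRCm38.p6 for 300 bases, from 250 before the annotated start to 50 after it, read 5′ to 3′ on the minus strand with every CpG in capitals. The Prmt5 promoter is chr14:54517421-54517720 and the Haus4 promoter is chr14:54554312-54554611.
Prmt5 promoter: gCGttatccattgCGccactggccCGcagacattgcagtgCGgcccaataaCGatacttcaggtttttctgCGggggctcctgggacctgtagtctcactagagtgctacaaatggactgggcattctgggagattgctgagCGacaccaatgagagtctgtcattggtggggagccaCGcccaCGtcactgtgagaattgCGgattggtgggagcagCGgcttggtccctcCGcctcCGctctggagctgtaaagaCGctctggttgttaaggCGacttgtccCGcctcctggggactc
Haus4 promoter: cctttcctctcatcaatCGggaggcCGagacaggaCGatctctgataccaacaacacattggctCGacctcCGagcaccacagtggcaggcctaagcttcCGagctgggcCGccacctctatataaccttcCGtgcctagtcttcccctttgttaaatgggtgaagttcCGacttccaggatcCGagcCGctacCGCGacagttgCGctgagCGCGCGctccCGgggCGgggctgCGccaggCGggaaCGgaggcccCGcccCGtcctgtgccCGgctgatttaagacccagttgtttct

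The Prmt5 promoter holds 16 CpG and is 58% G or C, and the Haus4 promoter holds 25 CpG and is 61.3% G or C. The median over 32851 mouse promoters of the same length was 7 CpG. More CpG than in Prmt5 was found in 31.4% of those promoters, and more than in Haus4 in 16.9%. The letters CCAAT, searched on both strands, occur 4 times in the Prmt5 promoter and 1 time in the Haus4 promoter, and in 37.4% of all promoters of this length. The letters GGGCGG, also searched on both strands, occur 0 times in Prmt5 and 2 times in Haus4, and in 35.7% of all promoters. The letters TATAA on either strand occur 0 times in Prmt5 and 1 time in Haus4, and in 24.9% of all promoters. These matches describe the letters only.

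The last 200 bases marked in both mm9 replicates are shown next for each gene, because the shared mark ended there, inside the first intron. They were read from the mm9 genome on the minus strand, with CpG in capitals. Their positions are chr14:55135801-55136000 for Prmt5 and chr14:55172601-55172800 for Haus4. Region ends lie on a grid of 200 bp, and in replicate 2 the Haus4 region ran on to 55173000.
Prmt5 edge: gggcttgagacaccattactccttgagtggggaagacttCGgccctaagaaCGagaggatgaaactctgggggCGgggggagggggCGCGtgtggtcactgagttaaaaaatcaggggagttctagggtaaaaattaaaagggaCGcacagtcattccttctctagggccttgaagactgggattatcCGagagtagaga
Haus4 edge: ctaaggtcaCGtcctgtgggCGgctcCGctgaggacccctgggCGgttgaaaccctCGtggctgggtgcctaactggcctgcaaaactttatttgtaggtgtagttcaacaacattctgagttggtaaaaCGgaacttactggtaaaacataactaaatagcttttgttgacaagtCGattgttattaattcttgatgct

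Each of these edge sequences holds 7 CpG and lies outside annotated exons.

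The mm10 body coverage, given as a description with no test, was 95.9% for Prmt5 in the authors' replicated list. It was 95.9% in the pooled list, 94.3% in replicate 1 and 96.0% in replicate 2, a mean of 95.1 ± 1.15% (SD, n = 2). Haus4 was covered over 93.1% in the replicated list and 93.1% in the pooled list. In the replicates it was covered over 88.4% and 93.5%, a mean of 91.0 ± 3.62% (SD, n = 2). Prmt5 was more covered than Haus4 in each of the 4 mm10 lists, while in the mm9 lists described below Haus4 was the more covered. A body at least 50% covered was seen in both members, as in 0.386% of the 16849 genes, and one at least 90% covered in both members, as in 0.0356%. At the 50% mark the shares were 0.427% in the pooled list, 0.231% in replicate 1 and 0.368% in replicate 2, with both members past it in each. These shares are given as background only, since coverage was the ground for the choice. By coverage Prmt5 ranked 1 and Haus4 ranked 4 among the 16849.

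**Figure D1:**
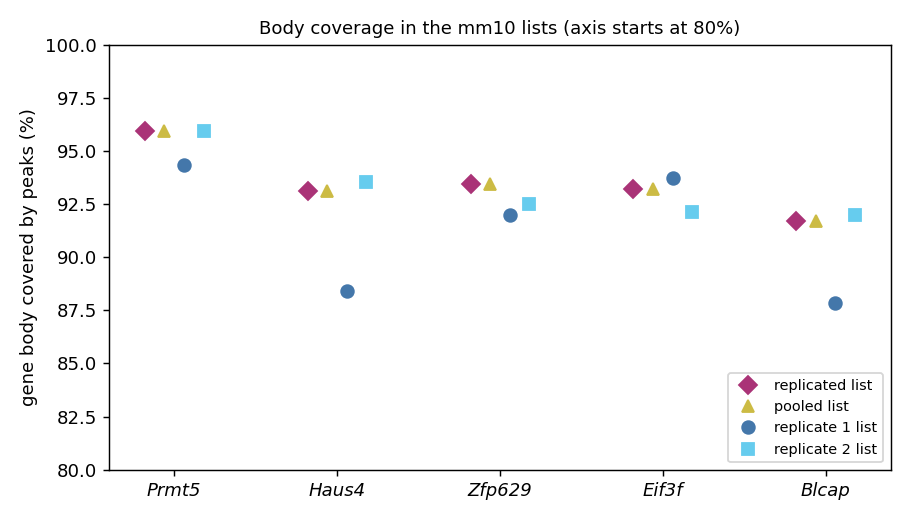
Percent of the gene body covered by H3K9me3 peaks in each mm10 list (vertical axis, starting at 80%) for Prmt5, Haus4 and the 3 genes with the most similar coverage; each marker is 1 list. Prmt5 sits between 94.3% and 96.0%, and the replicate 1 value of Haus4, 88.4%, is the lowest of its 4.

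The cover of Prmt5 was essentially 1 peak. In the replicated list it ran over chr14:54503294-54517050, was 13757 bp wide and had a fold enrichment of 23.4, a linear ratio given by the authors as are all fold, p and q values here. Its −log10 p was 160.8 and its −log10 q was 155.9. Replicate 1 had a peak of 12890 bp with a fold of 15.2 and a second of 175 bp with a fold of 3.12, and replicate 2 had 1 peak of 13483 bp with a fold of 18.9. Among the 123489 peaks of the replicated list, whose median width was 528 bp and median fold 4.20, the Prmt5 peak ranked 8 by width and 110 by fold. Its width ranked 3 of 161565 in replicate 1 and 7 of 198948 in replicate 2.

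Haus4 was covered by 2 replicated peaks set 50 bp apart. The larger, chr14:54540838-54552840, was 12003 bp wide with a fold of 26.4 and a −log10 p of 192.3, and the smaller, chr14:54552891-54554131, was 1241 bp wide with a fold of 16.4 and a −log10 p of 96.5. Replicate 2 had a single peak of 13299 bp with a fold of 26.0. Replicate 1 broke the same stretch into 4 peaks of 655, 1373, 9377 and 965 bp with folds of 5.70, 5.20, 19.2 and 10.4, the first of them just past the gene's 3′ end. Haus4 thus differed between the replicates in the number of pieces, while its outer edges moved little, as given below. The larger peak ranked 30 by fold and 17 by width in the replicated list, and its counterpart ranked 26 by fold in replicate 1 and 113 in replicate 2.

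The list of replicated peaks held 29 peaks of at least 10 kb, of which 3 lay on chromosome 14, and the main peaks of Prmt5 and Haus4 were 2 of those. Of the 29, 16 had at least 50% of their width in protein-coding genes and 11 had none there. The point of greatest enrichment in Haus4 was placed 5438 bp inside the gene's 5′ end in the replicated list, 5433 bp in replicate 1 and 5467 bp in replicate 2. In Prmt5 it was placed at 5459, 8569 and 7109 bp. The Haus4 summit was thus placed almost alike in these lists, and the Prmt5 summit was not.

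**Figure D2:**
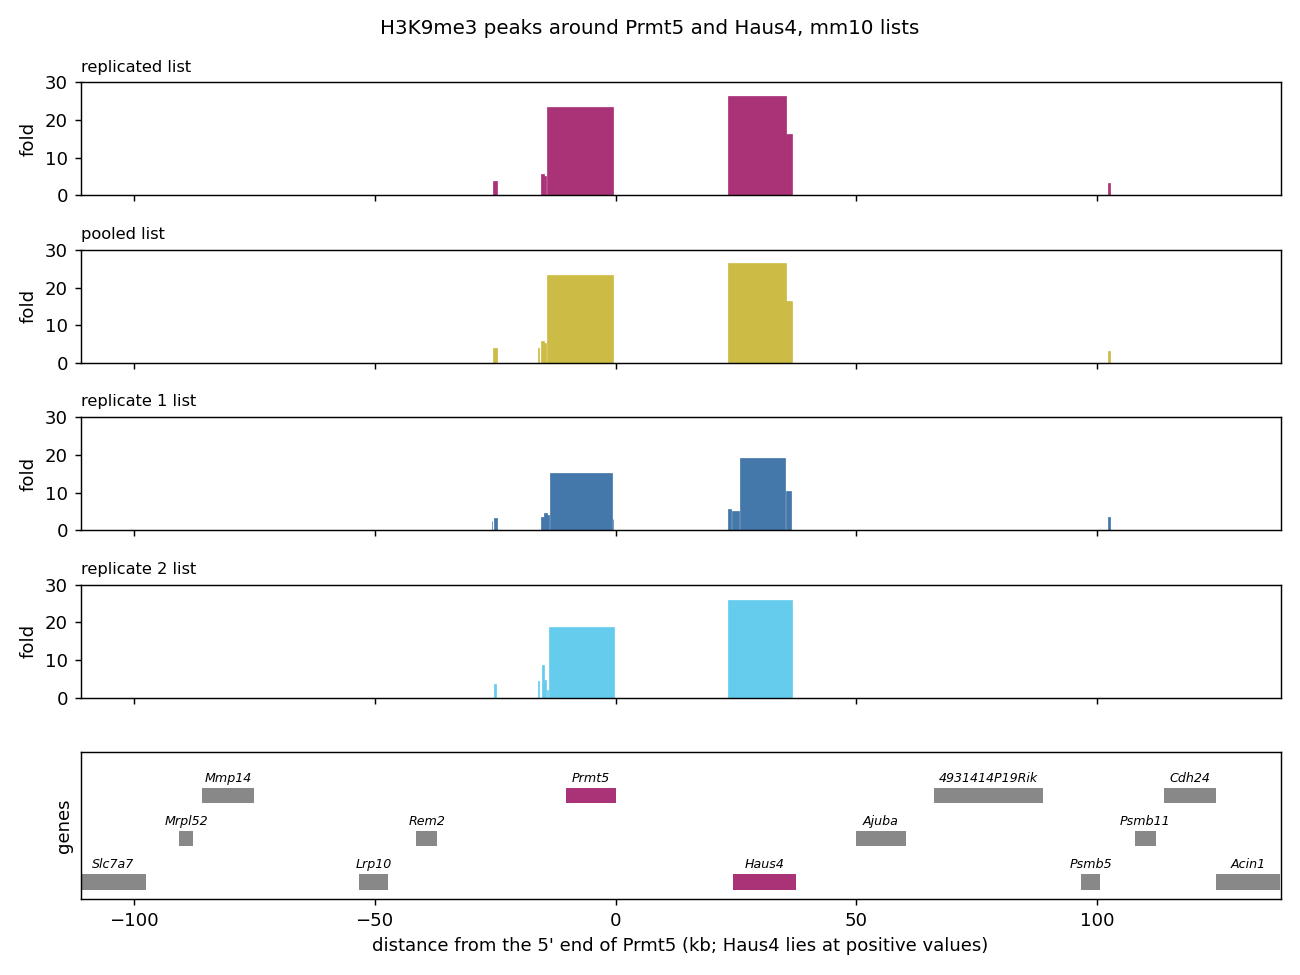
H3K9me3 peaks in each of the 4 mm10 lists across the window (horizontal axis, kb from the 5′ end of Prmt5; vertical axis, fold enrichment given by the authors), with protein-coding genes below; each bar spans 1 peak. The tall wide bars lie over Prmt5 and Haus4, with replicated folds of 23.4 and 26.4, and nothing lies between them in any list.

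Joining peaks across gaps of up to 1 kb gave 1 block on each gene. The Prmt5 block, chr14:54502030-54517050, was 15021 bp long, reached 5152 bp beyond the gene's 3′ end and stopped 420 bp short of its 5′ end. The part beyond the 3′ end held 2 replicated peaks of 564 and 422 bp, with folds of 5.72 and 5.25. The Haus4 block, chr14:54540838-54554131, was 13294 bp long, reached 947 bp beyond the 3′ end and stopped 858 bp short of the 5′ end of the gene record. Both blocks thus overran the 3′ end and fell short of the 5′ end.

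The 5′ edges were close between replicates. Prmt5 was left unmarked over its first 442 bp in replicate 1 and its first 416 bp in replicate 2, and Haus4 over its first 1098 and 853 bp. The 3′ overhang of Prmt5 came to 5264 bp for replicate 1 and 5779 bp for replicate 2, and that of Haus4 was 937 and 947 bp. Joining across 0.5, 3 or 5 kb, or keeping only peaks with a −log10 q of at least 2 or a fold of at least 4, left all 4 replicated edges where they were. The replicated peaks of the blocks had folds of at least 5.25 and −log10 q of at least 13.9. The nearest peak outside the blocks was 9210 bp away, so these settings could not have moved an edge.

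The uncovered bases of Prmt5 were therefore the 420 bp at its 5′ end in the replicated list. Those of Haus4 were the 858 bp at its 5′ end and the 50 bp between its peaks. RefSeq's promoter table places the start of Haus4 at 54554361, inside the gene record's end at 54554989, and from that start the first peak was 230 bp away. Neither promoter printed above had any base under a replicated peak.

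The 2 blocks were 23787 bp apart in the replicated list, and no peak of any of the 4 mm10 lists lay between them. The tRNA gene n-TRacg6, at chr14:54517696-54517768, lies in that gap just upstream of Prmt5, shares 25 bases with the printed Prmt5 promoter, and was 0% covered in every list. On the 3′ side of Prmt5 the next peak was 9210 bp away, and on the 5′ side of Haus4 it was 65632 bp away. Outside the blocks, replicated peaks covered 0.716% of the 94848 bp on the Prmt5 side, 0% of the gap and 0.359% of the 100858 bp on the Haus4 side. In replicate 1 these shares were 0.876%, 0% and 0.347%, and in replicate 2 they were 0.877%, 0.0168% and 0.00496%. Replicate 2 had no peak on the Haus4 side beyond the block itself, so the small peak 65632 bp away, with a fold of 3.19, was called in the replicated, pooled and replicate 1 lists but not there.

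Of the 20 genes in the mm10 window, 17 were 0% covered in all 4 lists. A body at least 50% covered was found in 3, namely Prmt5, Haus4 and Gm41153, while it was found in 1.92% of all 49939 genes, and the first 2 were chosen for it. Gm41153, a long noncoding RNA gene of 601 bp at chr14:54492313-54492913, is the nearest gene on the 3′ side of Prmt5. It was 84.4% covered in the replicated list, 87.0% in replicate 1 and 75.7% in replicate 2. Its replicated peak was 679 bp wide with a fold of 3.86, so it was lost when a fold of at least 4 was asked for, which left 2 genes. The nearest gene on the Haus4 side, Ajuba, which encodes a LIM-domain adaptor protein, was at 0%. So were the proteasome subunit genes Psmb5 and Psmb11, the matrix metalloproteinase gene Mmp14 and the splicing-associated gene Acin1.

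Surroundings were compared with those of the other 63 genes at least 50% covered in the replicated list. With the other member's gene body left out, peaks covered 3.48% of the 100 kb on either side of Prmt5 and 3.62% of those on either side of Haus4. Marked bases of the other member's block outside its body were still counted, such as the 3′ overhang of Prmt5 in the Haus4 value. The median over the other 63 genes was 6.86%, with a range of 0.315% to 39.6%. A lower value than that of Prmt5 was found in 14 of the 63, and a lower one than that of Haus4 in 15. No neighbouring gene was left out for the 63, so those counts set unlike measures side by side. With the other member's gene body counted, as for the 63, the values were 9.40% for Prmt5 and 8.37% for Haus4. Both were then above the median of 6.86%. The members therefore sat within the range of the other covered genes.

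**Figure D3:**
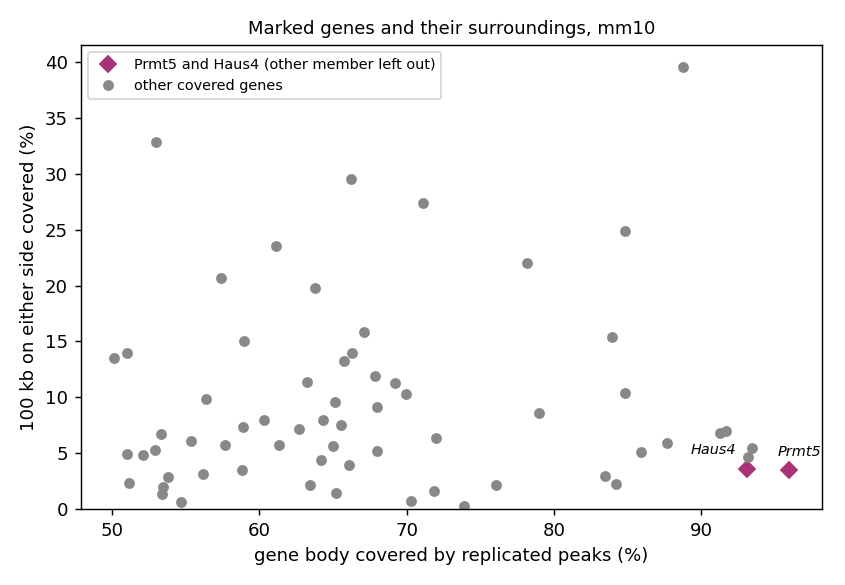
Covered share of the 100 kb on either side (vertical axis, %) against covered share of the gene body (horizontal axis, %) for the 65 protein-coding genes at least 50% covered by replicated mm10 peaks; each point is 1 gene and the diamonds are Prmt5 and Haus4 with the other member's gene body left out. Prmt5 lies farthest right with 3.48% of its flanks covered, and the other 63 genes, for which nothing was left out, range from 0.315% to 39.6%.

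An unmarked promoter is the usual state, found in 97.8% of the 13411 protein-coding genes of this length with a listed promoter, so it does not set the members apart. Promoter sequences were listed for Prmt5, Haus4 and 51 of the other 63 genes, and the promoters of both members and of 42 of those 51 had 0% of their bases under a replicated peak. The distance from the annotated start to the first peak downstream of it was 420 bp for Prmt5 and 230 bp for Haus4. That peak was not required to lie in the gene. Over all 44 such genes, members included, the median distance was 1274 bp, with a range of 144 to 15906 bp. Of the 44, 3 had a shorter distance than Prmt5 and 1 a shorter one than Haus4. The members were chosen for near-complete body coverage, which leaves few bases unmarked before the first peak. Most of the other genes were less covered. The short distances of the members therefore follow largely from the choice, and nothing particular to their 5′ ends is read from these counts.

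In mm9, whose regions were called more broadly on a grid of 200 bp, the same genes were again marked from the first intron to beyond the 3′ end. No coordinates were converted between the builds. Prmt5 (ENSMUSG00000023110.5) lies at chr14:55126024-55136362 and was 96.5% covered in replicate 1, in replicate 2, in both at once and in the series-level list. Haus4 (ENSMUSG00000022177.8) lies at chr14:55160622-55173198 and was 96.8% covered in replicate 1, 98.4% in replicate 2 and 96.8% by bases marked in both. By bases marked in both replicates, both members were at least 80% covered, as were 0.333% of 16526 genes, and Haus4 ranked 25 and Prmt5 26. The mm9 regions were wider than the mm10 peaks, with a median width of 4000 bp for replicate 1 and 3600 bp for replicate 2.

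The mm9 region on Prmt5 was 15600 bp wide with a fold of 7.96 in replicate 1 and 15800 bp wide with a fold of 9.64 in replicate 2, a mean fold of 8.80 ± 1.19 (SD, n = 2). The region on Haus4 was 13800 bp wide with a fold of 9.32 in replicate 1 and 13400 bp wide with a fold of 13.4 in replicate 2, a mean of 11.4 ± 2.88 (SD, n = 2). The fold of Haus4 was the higher one in both replicates, as it was for the largest mm10 peaks, but the means lay within the replicate spread of Haus4. The median fold over all regions was 2.84 in replicate 1 and 3.38 in replicate 2. The Prmt5 region overran the 3′ end by 5623 bp in replicate 1 and 5823 bp in replicate 2, and the Haus4 region by 1621 and 1021 bp.

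Exon by exon, the mark left out exon 1 of both genes and no other exon. Of the 17 exons of the Prmt5 transcript Prmt5-001, the 16 from exon 2 to the last were 100% covered, and exon 1, chr14:55136084-55136362, was at 0% in every mm9 list. Of the 10 exons of the single annotated Haus4 transcript, the 9 after the first were 100% covered, and exon 1, chr14:55173012-55173198, was at 0% in every list. By bases marked in both replicates the edge lay in intron 1, 83 bp downstream of exon 1 in Prmt5 and 211 bp downstream of it in Haus4. On the 200 bp grid, the Prmt5 edge was the same in both replicates, and that of Haus4 was 1 step nearer to exon 1 in replicate 2. Across these transcripts, exonic bases were 89.6% covered in Prmt5 and 88.2% in Haus4, and intronic bases 98.9% and 98.1%.

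**Figure D4:**
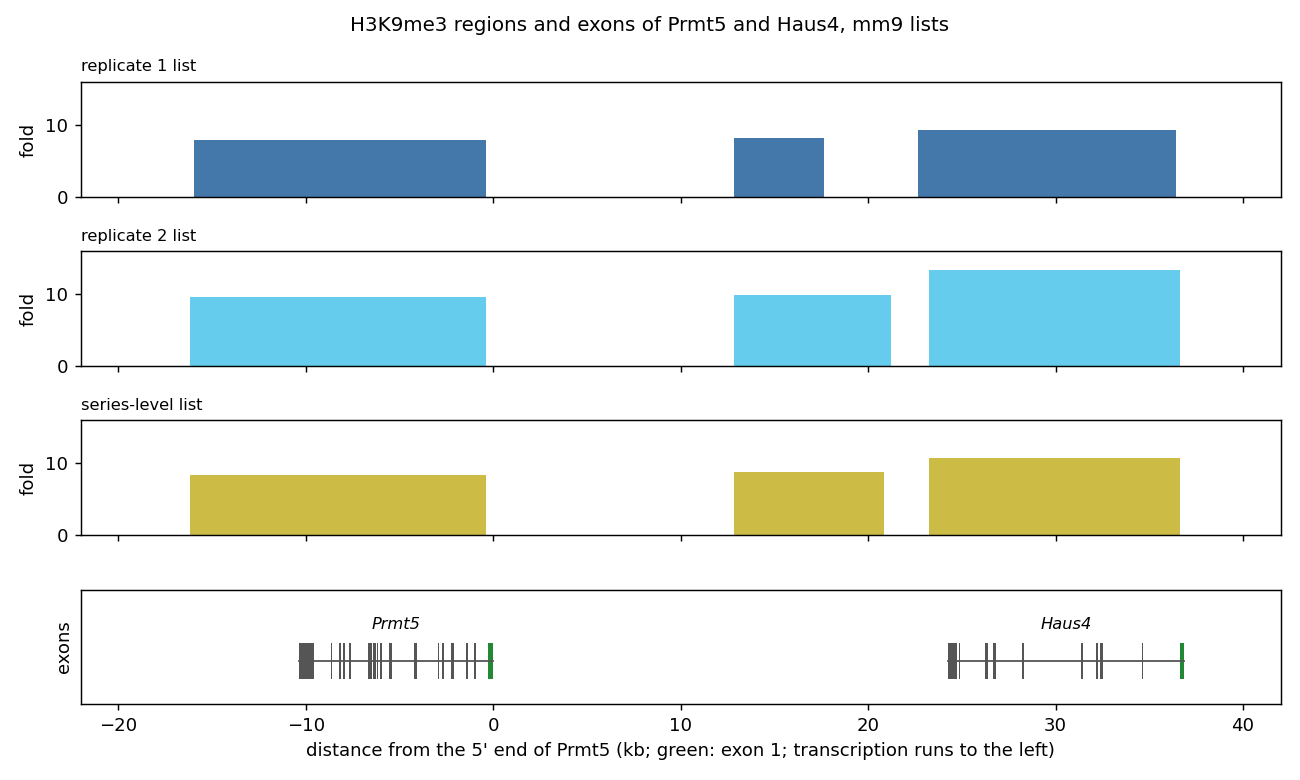
H3K9me3 regions in the 3 mm9 lists (horizontal axis, kb from the 5′ end of Prmt5; vertical axis, fold enrichment given by the authors), with the exons of both genes below and exon 1 in green; each bar spans 1 region. The regions over Prmt5 and Haus4 stop short of the green exon in each list, and a separate region of 4800 bp in replicate 1 and 8400 bp in replicate 2 lies between the genes.

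Of the 55 genes at least 80% covered in mm9, 54 had 2 or more exons. Exon 1 was at 0% in 24 of the 54 and at 100% in 29. An unmarked exon 1 with all later exons fully covered was found in 19, among them Prmt5, Haus4, Eif3f, Mrps14 and Surf6.

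Promoters were taken in mm9 as the 1 kb before and the 1 kb after each annotated transcript start. Shared regions reached those of 2 of the 16 protein-coding genes of the window, Prmt5 and Haus4, while they reached 5.54% of all 22367 protein-coding genes. These promoter windows take in part of each gene body, and the 2 members were chosen for body coverage. That their promoters were reached therefore follows largely from the choice. Around the gene's own 5′ end, 31.9% of the window was covered in Prmt5 and 30.1% in Haus4, in each case the side that lies within the gene. Windows of 2.5 and 5 kb gave the same 2 genes, and 9.08% and 15.0% of all protein-coding genes. Using the gene's own 5′ end alone also gave these 2, and 3.84% of all. Asking for at least 50% of a window left only Prmt5, through a transcript that starts inside the marked body, and 3.23% of all protein-coding genes passed. The unmarked 5′ end of Prmt5 had a CpG density near the median of other genes, and that of Haus4 was higher. The 362 bp of Prmt5 held 69.1 CpG per kb and the 398 bp of Haus4 held 113.1 CpG per kb, while the first 362 and 398 bp of 16526 genes had medians of 63.5 and 62.8. More CpG per kb was found in 45.2% of those genes than in Prmt5, and in 16.7% than in Haus4.

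Between the genes the 2 sets of lists differed. The mm9 lists held a region that began 12838 bp upstream of the Prmt5 5′ end, with a width of 4800 bp and a fold of 8.21 in replicate 1 and a width of 8400 bp and a fold of 9.95 in replicate 2, a mean fold of 9.08 ± 1.23 (SD, n = 2). The mm10 lists held no peak between the blocks. No gene of the GENCODE M1 annotation lies in that region. The stretch shared by both replicates, chr14:55149201-55154000, was 54.0% G or C with 33.3 CpG per kb, and 91.3% of its bases started a 36-mer present elsewhere in the mm9 genome. The read filters behind the lists are unknown, and their part in this difference was not tested.

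The bodies of the members were mostly unique sequence. The share of bases starting a repeated 36-mer was 4.81% in Prmt5 and 11.5% in Haus4, while it was 7.32% in the flank on the Prmt5 side and 6.42% in the flank on the Haus4 side. In exons, here joined over all annotated transcripts of each gene, it was 1.31% for Prmt5 and 0% for Haus4, and in introns 6.98% and 13.2%. For Prmt5 these exons span 3962 bp, against 2691 bp in Prmt5-001 alone. The share starting a 16-mer present at least 50 times was 11.2% in Prmt5 and 21.0% in Haus4, and it was 44.3% in the shared region between the genes. Over the 55 genes at least 80% covered, members included, the median share of repeated 36-mers was 41.8%, with a middle range of 12.7% to 59.0%. Of these genes, 5 were lower than Prmt5 and 12 lower than Haus4. For 16-mers present at least 50 times their median was 14.6%, with 19 genes lower than Prmt5 and 34 lower than Haus4. By that measure the flanks were at 15.7% on the Prmt5 side and 14.7% on the Haus4 side. Haus4 was thus above both flanks and the median, and Prmt5 below them. CpG density was 17.6 per kb in Prmt5 and 18.5 per kb in Haus4, while the median was 8.46 in the 55 covered genes and 11.7 in the 16526 genes. These bodies take in the unmarked 5′ ends, which are denser in CpG. The regions marked in both replicates, 3′ overhang included, held 12.6 per kb on Prmt5 and 15.5 per kb on Haus4. The flanks held 14.6 per kb on the Prmt5 side and 19.3 per kb on the Haus4 side.

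**Figure D5:**
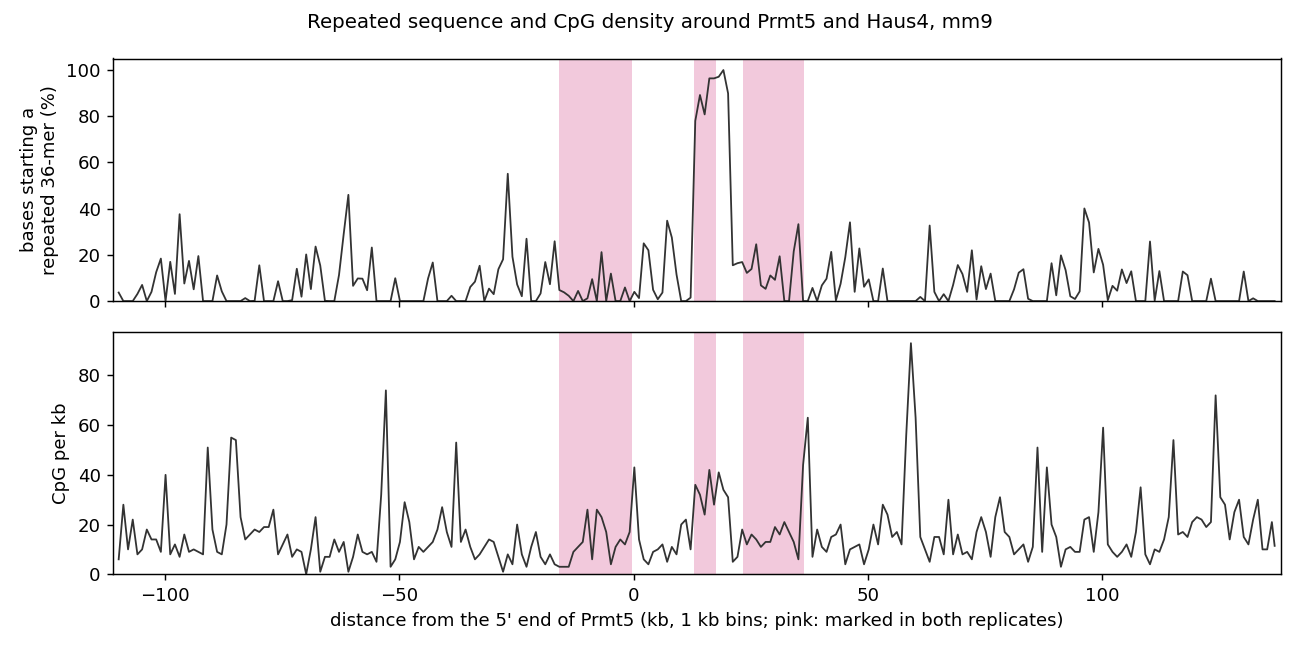
Share of bases starting a 36-mer found elsewhere in the genome (upper panel, %) and CpG per kb (lower panel) in 1 kb bins of mm9 (horizontal axis, kb from the 5′ end of Prmt5); pink marks bases covered in both replicates. The repeated share reaches 100% between the genes, and over the whole bodies it is 4.81% in Prmt5 and 11.5% in Haus4.

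Other genes of the same protein families carried little of the mark. At least 10% body coverage in the replicated list was found in 5.34% of 21883 protein-coding genes, and any coverage in 30.7%. Among 9 protein arginine methyltransferase genes, 6 were at 0%, Prmt2 was at 5.82% and Prmt9 at 0.801%, with Prmt5 at 95.9%. The genes of 4 Prmt5 partners were at 0%, among them Wdr77, the obligate cofactor of the enzyme, and the adaptors Clns1a and Riok1. So were the genes of 3 of its spliceosomal substrates, Snrpb, Snrpd1 and Snrpd3. Among 8 augmin subunits, 6 were at 0% and Haus8 was at 2.02%, with Haus4 at 93.1%. Among 8 genes of gamma-tubulin and its partners, Tubgcp3 was at 0.388% and Tubgcp2 at 37.6%.

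Tubgcp2, which encodes a core subunit of the gamma-tubulin complex, was the 1 gene of the 30 listed besides the members to reach 10%. It was 31.4% covered in replicate 1 and 39.0% in replicate 2, and 74.2% covered by bases marked in both replicates of mm9. Without the members 25 of the 30 were at 0% and the median was 0%, and over all protein-coding genes 15154 of 21883 were at 0%, with a median of 0%. Nothing particular to these families is read from that.

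The genes most like the members over the 4 mm10 lists, by distance to the members' mean coverage, were Zfp629, Eif3f and Blcap. Zfp629, which encodes a zinc finger protein, was 93.4% covered in the replicated list, 92.0% in replicate 1 and 92.5% in replicate 2. Eif3f, a translation initiation factor subunit, was at 93.2%, 93.7% and 92.1% in the same lists. Blcap, the host of an imprinted gene, was at 91.7%, 87.9% and 92.0%. Zfp629 and Eif3f lay between Prmt5 and Haus4 in the replicated list and Blcap just under Haus4. The promoter of Eif3f was unmarked as in the members, and its first peak began 513 bp from the start, while the most covered of the 3 promoters of Zfp629 was at 100%.

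As a check of the cell type, the bodies of 10 stem cell marker genes and 8 fibroblast marker genes were examined, since feeder cells can be present in such cultures. Of the stem cell markers 9 were at 0%, Pou5f1, Nanog and Sox2 among them, and Esrrb was at 5.20%. Of the fibroblast markers 6 were at 0%, Col1a1 was at 9.85% and Lum at 3.39%. Peak lists of a silencing mark do not measure expression, so the label could be neither upheld nor questioned from them.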

How the data were processed

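H3K9me3 ChIP-seq peak lists of 2 replicates were used, 4 in mm10 (each replicate, pooled, replicated) and 3 in mm9 (each replicate and a series-level list whose pooling is not stated). Each peak's fold is a linear ratio deposited by the authors, with its reference unknown here. Per the deposited mm10 lists, peaks carry −log10 p and −log10 q, and the deposited mm9 lists give p-value and q-value as linear numbers. Per the deposited file lists, the replicated mm10 list derives from the pooled list and both replicates' own. The aligner and peak caller, not given in the sources used here, set peak width, and their treatment of reads that map to several places can add or remove peaks at repeats.

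Gene coverage, blocks (peaks within 1 kb joined) and neighbours were computed in mm10 with RefSeq genes of GRCm38.p6. Exons, promoters and sequence were computed in mm9 with GENCODE M1, over bases covered in both replicates. Python 3.11.15 with numpy 2.4.6, pandas 2.3.3 and matplotlib 3.10.9 was used. Coverage and k-mer code was tested on simulated data. No test was run, since there is 1 group and the members were picked for their coverage. The members, the gene lists and the alternatives were chosen with earlier results of these data known. Genes named were the members, any gene between or within their blocks, the nearest gene on either side, window genes at least 50% covered, listed family genes at least 10% covered, and the 3 genes of most similar coverage. Other genes named in the text, such as those given at 0%, were picked after their values were seen. A mean ± SD over 2 replicates describes values called separately in each list.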

Additional observations from a re-analysis of the deposited data

How the results depend on the processing

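The 19 results were recomputed under alternatives that gave 82 values. Each result is a single percentage, length, fold or count with no direction, so a change of direction could not be tested. Of the 82 values, 18 moved by more than the limit set for their kind. That limit was the spread between replicates or, for counts of genes, a tolerance set for counts. The shares of repeated sequence have no replicates, so their limit was a 95% binomial interval over bases. That interval treats neighbouring bases as independent, which they are not, so it is narrow. Those 18 are given here, as values or within ranges, and the other 64 did not move that far. Among the 64 are the block edges under joining distances and cutoffs that could not have moved them. In the pooled list the Prmt5 block reached 5773 bp beyond the 3′ end. Bases marked in either replicate, or in the series-level list, covered 98.4% of Haus4 in mm9. With at least 50% of the promoter window covered, 1 gene of the window was marked. With 16-mers present at least 10 times, the shares were 21.9% in Prmt5, 33.6% in Haus4 and 88.6% between the genes. With repeated 50-mers they were 3.05%, 6.44% and 87.8%.

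With a single replicate's list, mm10 coverage ranged from 94.3% to 96.0% for Prmt5 and from 88.4% to 93.5% for Haus4, and mm9 coverage of Haus4 from 96.8% to 98.4%. The 3′ overhang ranged from 5264 to 5779 bp for Prmt5 and from 937 to 947 bp for Haus4. The distance to the 5′ end ranged from 416 to 442 bp for Prmt5 and from 853 to 1098 bp for Haus4. The median fold of the mm10 peaks ranged from 9.14 to 18.9 on Prmt5, against 23.4 in the replicated list, and from 10.4 to 26.0 on Haus4, against 21.4. The lower values belong to replicate 1, whose peaks on both genes were more numerous. Depth is unknown, so the absence of a peak says only that none was called. No paired analysis was possible because the series has 1 group.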

Other observations

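The mm9 stretch between the genes is mostly repeated sequence, and only part of it has few copies. Of its 4800 bases, 91.3% started a 36-mer present elsewhere in mm9. A 36-mer found 2 to 10 times was started by 1707 bases, and the other repeated ones were found more often. Of the 36-mers found 2 to 10 times, the 20 kb bins with most copies lie on chromosomes 9, 19 and 8. They hold 1551, 1545 and 1451, and a bin on chromosome 14 itself holds 915. In Prmt5 154 bases and in Haus4 543 bases started such a 36-mer, and no bin held more than 20 of those of Prmt5 or 27 of those of Haus4.

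The high share of repeated 36-mers also ran past the marked stretch. It was 97.1%, 100% and 89.9% in the next 3 bins of 1 kb towards Haus4, which replicate 2 marked and replicate 1 did not, and 15.5% in the bin after those.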
